A study of Mus musculus with 4 samples.

Results

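The genes described here are 10 antiviral interferon-stimulated genes of the mouse, Samd9l, Parp9, Parp14, Dtx3l, Trim25, Trim56, Zc3hav1, Bst2, Isg20 and Rnf213, out of 21938 protein-coding genes in the annotation. They were chosen by name, with earlier results of these data known, and a peak was given to a gene when its summit lay in one of the gene's exons. N6-methyladenosine (m6A) was mapped by meRIP-seq, in which RNA is fragmented, fragments that carry the mark are captured with an antibody (IP), and the captured and the unselected RNA (input) are sequenced. The samples were Kit+ foetal liver cells enriched on magnetic beads (MACS) from C57BL/6 mice, 2 IP replicates and 2 input replicates, labelled as total RNA and polyA RNA respectively. Per the methods these were Ythdf2 CTL cells, that is Ythdf2 fl/fl cells without Cre, whose floxed allele carries GFP joined to Ythdf2, and the replicates were biological. There was 1 genotype, no treatment and no second group, age and sex were not given in the sources used here, and each value below is a description of 2 IP libraries with no test between conditions.

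Interferon-stimulated genes are switched on when a cell senses viral nucleic acid or receives interferon, and many are also kept at a low level in blood stem and progenitor cells without infection. Their products act at different steps: some sense or mark viral RNA, some degrade it, some add ubiquitin or ADP-ribose to proteins, and some hold new virus particles at the cell surface. m6A is placed on mRNA mostly in the DRACH sequence, written in the one-letter codes for mixed bases (D means any base but C, R a purine, H any base but G), of which GGAC is a frequent core, and it is typically dense near stop codons and in long internal exons. YTHDF2 binds m6A in mRNA and brings the transcript to decay, and the meRIP-seq was done to learn which transcripts carry the mark in c-Kit+ cells.

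All 10 genes carried a peak in at least 1 replicate, and 8 of 10 carried one in both. Samd9l, Parp9, Parp14, Dtx3l, Trim25, Trim56, Zc3hav1 and Rnf213 had an exonic summit in each replicate. Bst2 and Isg20 had theirs in replicate 1 alone, so the count was 10 of 10 genes in replicate 1 and 8 of 10 in replicate 2. Of all protein-coding genes, 34.5% had an exonic summit in replicate 1, 33.5% in replicate 2, 30.9% in both and 37.1% in either. The 10 genes held 25 peaks in replicate 1 and 22 in replicate 2. Parp14 had the strongest enrichment, in its 3′ UTR, and Rnf213 and Samd9l had the most peaks.

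The sequences under the strongest peaks are shown so that the motifs can be seen next to the values that follow. Each is read 5′ to 3′ on the strand of the gene, lies within 1 exon and was chosen from the summit of replicate 1, in GRCm38. Coding windows have the summit in the middle and 50 bases on either side. For Parp14, whose summit lay in the 3′ UTR, and for Isg20, whose summit lay just before the start codon, 30 bases about the GGAC nearest to the summit are printed. The Parp14 summit is the first base printed. The Isg20 summit lies before the printed bases, with the A of the GGAC 40 nt after it. The first set holds windows with GGAC, which is in capitals:
Parp9, strongest peak, chr16:35947909-35948009, plus strand: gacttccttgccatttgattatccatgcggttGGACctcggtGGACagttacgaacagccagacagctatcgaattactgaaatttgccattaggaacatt
Parp14, strongest peak, chr16:35834195-35834224, minus strand: tgttgcgtgggttGGACagctccagccagg
Dtx3l, strongest peak, chr16:35932625-35932725, minus strand: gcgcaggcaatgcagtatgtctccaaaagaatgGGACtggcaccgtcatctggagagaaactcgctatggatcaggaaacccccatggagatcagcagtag
Trim25, strongest peak, chr11:89016609-89016709, plus strand: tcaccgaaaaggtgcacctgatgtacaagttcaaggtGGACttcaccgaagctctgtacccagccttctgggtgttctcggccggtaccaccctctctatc
Trim56, strongest peak, chr5:137113535-137113635, minus strand: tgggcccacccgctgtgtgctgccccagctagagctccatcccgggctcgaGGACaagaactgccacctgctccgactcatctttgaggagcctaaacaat
Isg20, strongest peak, chr7:78914363-78914392, plus strand: aggtggtggccatGGACtgtgagatggtgg
Samd9l, second peak, chr6:3375502-3375602, minus strand: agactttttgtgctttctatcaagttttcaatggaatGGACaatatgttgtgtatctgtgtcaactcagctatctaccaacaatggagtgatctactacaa
Rnf213, second peak, chr11:119436054-119436154, plus strand: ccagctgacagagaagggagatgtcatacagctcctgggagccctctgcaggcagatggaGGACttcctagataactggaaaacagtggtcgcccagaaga

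In the windows of Samd9l, Rnf213, Zc3hav1 and Bst2 that follow, no GGAC lay within 50 nt of the strongest summit, and the capitals mark DRACH matches instead:
Samd9l, strongest peak, chr6:3374275-3374375, minus strand: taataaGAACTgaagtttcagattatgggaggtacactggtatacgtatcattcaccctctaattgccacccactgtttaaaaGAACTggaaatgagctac
Rnf213, strongest peak, chr11:119440871-119440971, plus strand: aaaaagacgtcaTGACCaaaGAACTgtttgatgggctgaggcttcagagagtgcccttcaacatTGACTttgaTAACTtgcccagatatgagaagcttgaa
Zc3hav1, strongest peak, chr6:38354060-38354160, minus strand: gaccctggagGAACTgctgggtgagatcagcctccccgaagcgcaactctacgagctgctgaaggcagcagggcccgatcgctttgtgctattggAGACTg
Bst2, strongest peak, chr8:71537279-71537379, minus strand: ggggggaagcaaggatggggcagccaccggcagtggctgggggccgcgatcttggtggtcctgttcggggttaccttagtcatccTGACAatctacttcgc

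Samd9l and Rnf213 had a GGAC near another of their peaks, shown in the first set. Zc3hav1 had one near its coding peak in exon 4, not shown, with the A 1 nt from the summit in replicate 1 and 16 nt in replicate 2. GGAC lay within 50 nt of the summit for 15 of 24 placed summits of the 10 genes in replicate 1 (62.5%) and for 13 of 22 in replicate 2 (59.1%). The 13 include a summit, described below, that lay in exons of both Dtx3l and Parp9. It was placed on Dtx3l for this count, and on Parp9 it had no GGAC within 50 nt. Over all placed summits the shares were 56.1% and 56.0%, and 33.6% of all positions along the 10 transcripts had a GGAC that near. DRACH was found at 24 of 24 and 22 of 22 summits, against 93.3% of all placed summits in each replicate, but 89.4% of positions along the 10 transcripts have one as well, so this match separates little. A match is a description of the letters and does not show which adenosine was methylated.

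Fold enrichment is the ratio, from the authors' peak calling, of IP signal to local background at the summit, and −log10 q is the strength of that call. Over each whole list the median fold was 4.47 in replicate 1 and 4.76 in replicate 2, and the median −log10 q was 15 and 14.8. The strongest peak of a gene, taken by −log10 q, had a median fold of 6.24 over the 10 genes in replicate 1 and 7.17 over the 8 genes called in replicate 2. For all protein-coding genes with a peak these medians were 4.49 and 4.76. Over all of their peaks the 10 genes had a median fold of 4.12 in replicate 1, under the list median, and 5.83 in replicate 2, above it. A strongest peak is picked from more peaks where a gene has several, and the median gene with a peak had 1. The positions and folds of all peaks on the 10 transcripts are drawn in the maps that follow.

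**Figure D1:**
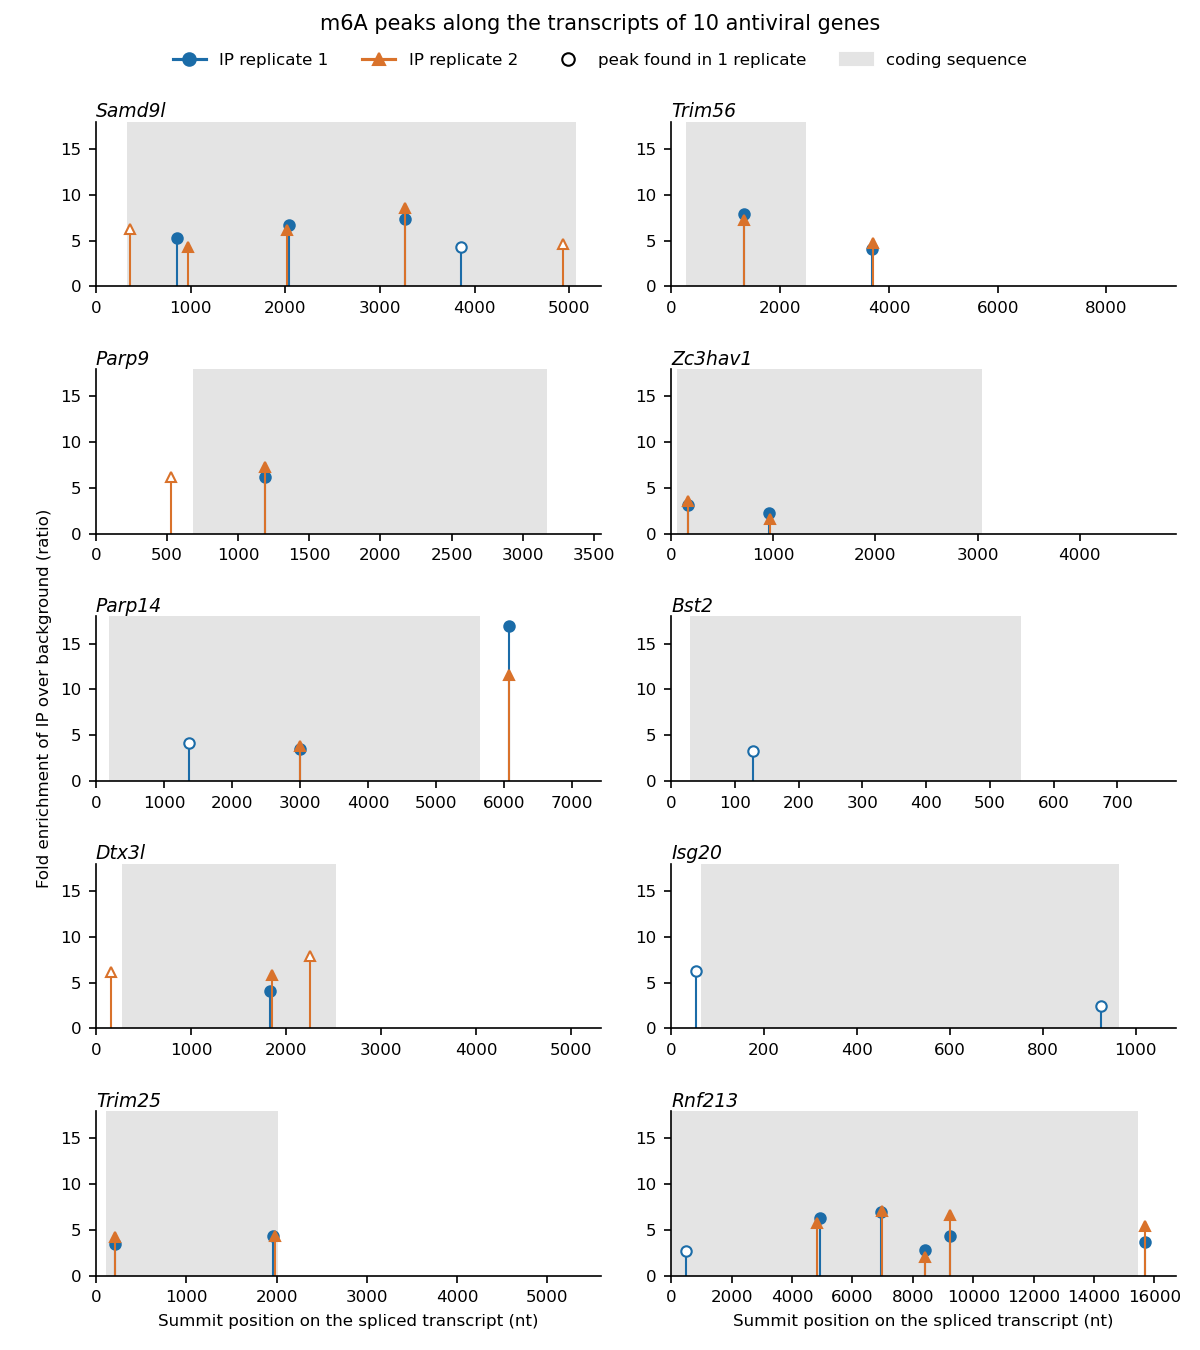
Each panel is 1 gene, with the summit position along the spliced transcript in nt on the x axis and the fold enrichment (ratio) on the y axis; circles are IP replicate 1, triangles IP replicate 2, open symbols are peaks without an overlapping peak in the other replicate, and grey marks the coding sequence. Parp14 reached 16.9 and 11.6 in its 3′ UTR, Samd9l and Rnf213 had 4 to 6 peaks per replicate, and Bst2 and Isg20 had open symbols alone; 1 peak of Zc3hav1 that is not on the drawn transcript is left out.

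Parp14 (chromosome 16, 35832874 to 35871544, minus strand) encodes a large macrodomain enzyme that adds single ADP-ribose units to proteins, and it had the highest fold of the 10 genes. Its strongest peak lay in the 3′ UTR in exon 17 of 17, at 35833831 to 35834655 in replicate 1 and 35833821 to 35834572 in replicate 2. The fold was 16.9 in replicate 1 and 11.6 in replicate 2 (mean 14.3 ± 3.73, SD, n = 2), with −log10 q of 63.4 and 40.7. In replicate 1 it stood above 99.7% of the list by fold and in replicate 2 above 96.2%. The summits were 3 nt apart, and the A of the GGAC printed above lay 15 nt after that of replicate 1. The summit rested on 72 IP reads over a background of 3.8 control reads in replicate 1, and on 60 over 4 in replicate 2, so the denominator of this fold was small in both.

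Parp14 also carried weaker peaks in its long exon 6, which has 2282 nt of coding sequence. One was found in both replicates with a fold of 3.46 in replicate 1 and 3.84 in replicate 2 and with summits 8 nt apart. Another, with a fold of 4.11 on 11 IP reads, was found in replicate 1 alone. Compared with the 3′ UTR peak, those of exon 6 had the lower fold in each replicate.

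Parp9 and Dtx3l are head-to-head neighbours on chromosome 16, and their products form a complex of an ADP-ribosyltransferase family protein with an E3 ubiquitin ligase. Parp9 (35938470 to 35972605, plus strand) had a peak in exon 4 of 11, an exon of 854 nt, with a fold of 6.18 in replicate 1 and 7.23 in replicate 2 (mean 6.71 ± 0.742, SD, n = 2). The −log10 q was 30.2 and 36.3, on 70 and 78 IP reads. The summits were 1 nt apart, and the second GGAC of the sequence shown for Parp9 lay within 7 nt of both. This was the peak that the Parp9 call in both replicates rested on.

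Dtx3l (35926511 to 35939151, minus strand) had its shared peak in exon 3 of 5, an exon of 1524 nt. The fold was 4.04 in replicate 1 and 5.85 in replicate 2 (mean 4.94 ± 1.28, SD, n = 2), with −log10 q of 17.2 and 26.4 and summits 13 nt apart. Replicate 2 also had a peak in exon 4 with a fold of 7.94 and −log10 q of 25.1, on 49 IP reads over 5 control reads, which had no counterpart in replicate 1. By fold this unshared peak exceeded the shared one, while by −log10 q the shared one came first. A further peak of replicate 2, with a fold of 6.02, had its summit in Dtx3l outside the annotated exons and is not counted.

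The genes Dtx3l and Parp9 overlap over 682 bp at their 5′ ends, and 1 peak of replicate 2 had its summit in exon 1 of both, at 35938841 to 35939150. Its fold was 6.20 and its −log10 q 10.6, and replicate 1 had no peak at that place. The peak lists carry no strand, so it cannot be given to one of the 2 genes, and it is listed under both. In the counts by region and motif it stands under Dtx3l alone, by alphabetical order. It lay within 200 nt of the start codon on either transcript. Neither gene needed it for its call in both replicates.

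Samd9l (chromosome 6, 3372257 to 3399572, minus strand) encodes an antiviral and growth-restraining cytoplasmic protein whose loss or mutation is known from myeloid disease. Its coding sequence lies wholly in exon 2 of 2, an exon of 5025 nt, and that exon held all of its peaks. There were 4 in replicate 1 and 5 in replicate 2, whereas 4.81% and 4.80% of protein-coding genes with a peak had 4 or more. The strongest had a fold of 7.34 in replicate 1 and 8.58 in replicate 2 (mean 7.96 ± 0.872, SD, n = 2), with −log10 q of 17.3 and 20.1 and summits 1 nt apart.

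The second peak of Samd9l had a fold of 6.67 in replicate 1 and 6.20 in replicate 2, with a GGAC 11 nt and 9 nt from the summit. The next shared peak had 5.25 and 4.29, with summits 119 nt apart. A coding peak with a fold of 4.35 was found in replicate 1 alone, and peaks near the start codon (6.24) and the stop codon (4.58) in replicate 2 alone. Shared and unshared peaks of Samd9l thus overlapped in fold. All 9 rested on a background under 5 control reads and on 14 to 35 IP reads, fewer than the list medians of 57.

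Rnf213 (chromosome 11, 119393100 to 119487418, plus strand) encodes a very large E3 ubiquitin ligase with an ATPase module that coats bacteria and restricts viruses. It has the longest transcript of the 10, with 67 exons and 16716 nt, and it had 6 peaks in replicate 1 and 5 in replicate 2. Of protein-coding genes with a peak, 0.728% had 6 or more in replicate 1. Per kilobase of transcript Rnf213 had 0.359 and 0.299 peaks, under the medians of 0.451 and 0.446 over genes with a peak, whereas Samd9l had 0.75 and 0.938.

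Of the shared peaks of Rnf213, 3 lay in exon 28, which has 3603 nt. The first of them had a fold of 7.0 in replicate 1 and 7.10 in replicate 2 (mean 7.05 ± 0.0714, SD, n = 2), with −log10 q of 51.7 and 43.4. The next had 4.33 in replicate 1 and 6.58 in replicate 2, on the log2 scale the largest difference between replicates among the shared pairs of the 10 genes. The weakest had 2.84 and 2.01, with −log10 q of 6.87 and 1.91, the latter near the limit of the list. Exon 25, with 1150 nt, held a peak with a fold of 6.27 and 5.81 and with summits 94 nt apart, and the A of the GGAC shown for it lay 12 nt from the summit of replicate 1. The 3′ UTR in exon 67 held one with 3.73 and 5.43 and summits 1 nt apart. A peak in exon 3, with a fold of 2.72, was found in replicate 1 alone.

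Trim56 and Trim25 encode E3 ubiquitin ligases with a RING domain. Trim56 (chromosome 5, 137105644 to 137116209, minus strand) takes part in innate signalling and restricts RNA viruses. Its coding peak in exon 3 of 3, an exon of 9018 nt, had a fold of 7.89 in replicate 1 and 7.23 in replicate 2 (mean 7.56 ± 0.471, SD, n = 2), with −log10 q of 47.5 and 38.3 on 91 and 84 IP reads. The A of the GGAC shown lay between the summits, 3 nt from each. A peak in the 3′ UTR, in the same exon, had a fold of 4.12 and 4.69. In both replicates the coding peak of Trim56 was the stronger of the pair.

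Trim25 (chromosome 11, 88999376 to 89020293, plus strand) activates the RNA sensor RIG-I and is a cofactor of the zinc finger antiviral protein. It was the one gene of the 10 with a peak within 200 nt of the stop codon in both replicates, in exon 9 of 9. The fold there was 4.37 in replicate 1 and 4.29 in replicate 2 (mean 4.33 ± 0.0551, SD, n = 2), with −log10 q of 42.5 and 39.4. It rested on 143 and 145 IP reads, the most of any peak of the 10 genes in each replicate. A second peak near the start codon in exon 1 had 3.41 and 4.18.

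Zc3hav1 (chromosome 6, 38305286 to 38354603, minus strand) encodes the zinc finger antiviral protein ZAP, which binds CpG-rich viral RNA and directs its decay. Its peak at the start codon in exon 1 of 13 had a fold of 3.09 in replicate 1 and 3.60 in replicate 2 (mean 3.35 ± 0.361, SD, n = 2), with −log10 q of 19.1 and 18.7. A coding peak in exon 4, with 1047 nt, had 2.22 and 1.66, the lowest folds of the 10 genes in each replicate. These came with a high background, 53 and 50 control reads under 104 and 88 IP reads. Another peak of replicate 1, with a fold of 2.69, lay upstream in the first exon of 2 other transcripts of the gene, where replicate 2 had called 1 wide peak over both places. Zc3hav1 thus had reads in plenty and little enrichment.

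Isg20 (chromosome 7, 78913424 to 78920396, plus strand) encodes an exonuclease that degrades single-stranded RNA. In replicate 1 it had a peak at the start codon in exon 2 of 4, with a fold of 6.30 and −log10 q of 20.7 on 46 IP reads, and one at the stop codon in exon 4, with 2.40 and 6.22 on 56 IP reads. Bst2 (chromosome 8, 71534255 to 71537456, minus strand) encodes tetherin, which holds budding virions on the cell surface. In replicate 1 it had a peak at the start codon in exon 1 of 5, with a fold of 3.26 and −log10 q of 12.5 on 62 IP reads. Replicate 2 had no peak in either gene.

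The missing calls of Bst2 and Isg20 were set against what replicate 2 did call. At a background within 10% of that of the Bst2 peak, replicate 2 held 1082 peaks with folds down to 1.86. For the 2 peaks of Isg20 the lowest folds called at like background were 2.39 and 1.76. All 3 folds of replicate 1 were above these values, as was every other unshared peak of the 10 genes in either replicate. The lowest fold called is a low bar, so this does not show that replicate 2 could have called Bst2 or Isg20. The background of replicate 2 at these genes is not known from a list of peaks, and fewer reads and less methylation in that library cannot be told apart. Isg20 and Bst2 have the shortest transcripts of the 10, with 1087 and 792 nt.

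Transcript length moved with the presence of a peak over all genes. When the protein-coding genes were split by length into 4 classes of about equal size, 12.9% of the shortest (24 to 1499 nt) had an exonic summit in both replicates, then 26.4% and 38.2%, and 46.1% of the longest (4013 to 123179 nt). Bst2 and Isg20 were in the shortest class, Parp9 was in that of 2545 to 4012 nt, and the other 7 genes were in the longest. In the longest class 7 of 7 were called, against its 46.1%. Expression level, which also decides whether a peak can be called, was not analysed here.

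**Figure D2:**
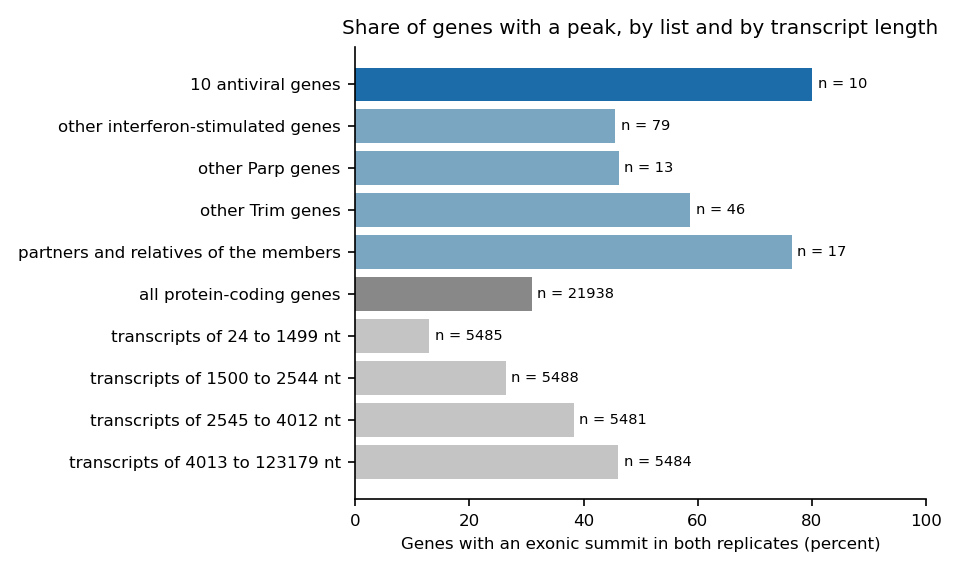
Bars give the percent of genes with an exonic summit in both replicates, with the number of genes beside each, for the 10 antiviral genes, for lists of related genes, for all protein-coding genes and for 4 classes of transcript length. The 10 genes stood at 80%, all protein-coding genes at 30.9%, and the share went from 12.9% to 46.1% with length.

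By position, most summits of the 10 genes lay inside the coding sequence and few at the stop codon, given here as a description without a test. In the coding sequence, more than 200 nt from the start and stop codons, lay 15 of 24 placed summits in replicate 1 (62.5%) and 13 of 22 in replicate 2 (59.1%). Of all placed summits, 34% and 33.8% did. Samd9l and Rnf213 held most of the coding summits of the 10 genes in each replicate, so the pooled shares lean on these 2 genes. The stop codon had 2 of 24 (8.33%) and 2 of 22 (9.09%), against 30.7% and 29.8%. The start codon had 4 in each replicate, 16.7% and 18.2% against 14.7% and 15.4%, and the 3′ UTR had 3 in each.

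Counted by gene, 7 of the 8 genes with peaks in both replicates had a coding summit in both, and Trim25 was the exception. Of all 6197 genes with placed summits in both replicates, 36.4% did. A stop codon summit in both was seen in 1 of the 8, against 42.1%. These shares were not matched for peaks per gene: the median gene with a peak had 1, and these 8 had 1 to 6 per replicate. A gene with more peaks has more chances of a summit in each region. The makeup of the transcripts moved the same way as the shares. Of the bases of the 10 transcripts, 58.1% were coding and away from the codons, against 39.6% over all protein-coding genes. Near the stop codon lay 6.56%, against 12.1%. Long exons held most of the summits, 21 of 24 and 20 of 22 being in an exon of at least 400 nt (87.5% and 90.9%), which was near the 86.7% and 86.8% of all placed summits.

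**Figure D3:**
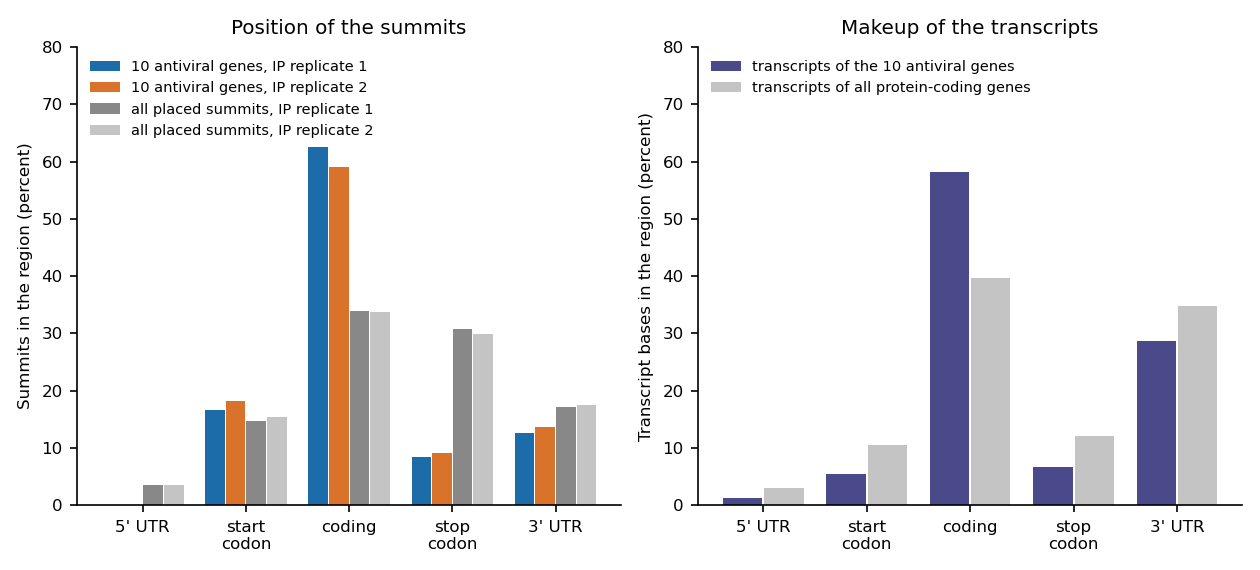
The left panel gives the percent of placed summits in each region of the transcript for the 10 antiviral genes and for all genes, by replicate, and the right panel the percent of transcript bases in the same regions; start and stop codon mean within 200 nt. Coding summits stood at 62.5% and 59.1% for the 10 genes against 34% and 33.8%, and coding bases at 58.1% against 39.6%.

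Peaks of Dtx3l, Trim25, Zc3hav1, Bst2 and Isg20 also lay near the 5′ end, with summits 54 to 210 nt from the start of the transcript. The antibody used for m6A also recognises m6Am, a modified adenosine next to the cap, and the 2 marks cannot be told apart in these peaks. The Dtx3l peak is the one also in exon 1 of Parp9, on whose transcript its summit lay 526 nt from the start. The distances of Zc3hav1 hold for the transcript used here, and 2 other transcripts of the gene have a first exon upstream.

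The replicates followed each other closely at the peaks they shared. Of the peaks in the 10 genes, 19 of 25 in replicate 1 (76.0%) and 18 of 22 in replicate 2 (81.8%) overlapped a peak of the other replicate, against 84.2% and 86.8% of all exonic peaks. For the 17 one-to-one pairs the log2 fold differed between replicates with an SD of 0.35, against 0.47 over all 11524 pairs. The fold was higher in replicate 2 for 9 pairs and lower for 8. The median distance between their summits was 13 nt, against 16 nt. The peaks without a partner were those named above in Samd9l, Parp14, Dtx3l, Parp9, Rnf213, Bst2 and Isg20, while Trim25, Trim56 and Zc3hav1 had none.

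**Figure D4:**
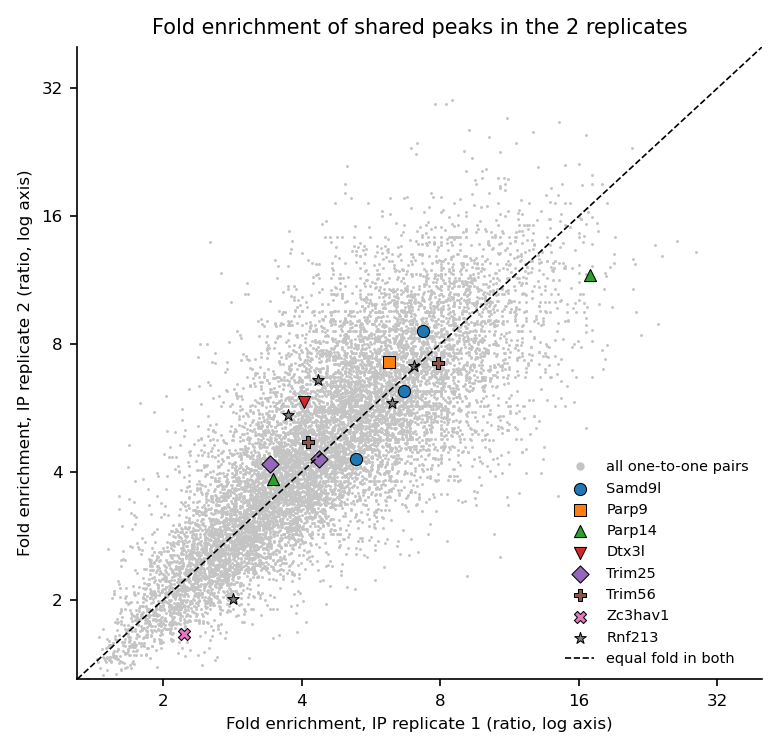
Each point is a pair of overlapping peaks, with the fold enrichment in IP replicate 1 on the x axis and in IP replicate 2 on the y axis, both log axes; coloured symbols are the 17 pairs of 8 antiviral genes, grey points all 11524 pairs, and the dashed line marks equal fold. The 17 pairs lie on both sides of the line, from Zc3hav1 at 2.22 and 1.66 to Parp14 at 16.9 and 11.6.

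The order of the genes by the mean fold of their strongest peak was Parp14 (14.3), Samd9l (7.96), Trim56 (7.56), Rnf213 (7.05), Parp9 (6.71), Dtx3l (4.94), Trim25 (4.33) and Zc3hav1 (3.35). Parp14 was above the other 7 in each replicate, and Zc3hav1 below them. Samd9l, Trim56, Rnf213 and Parp9 spanned 6.18 to 7.89 in replicate 1 and 7.10 to 8.58 in replicate 2 and did not keep the same order, so these neighbours were not separated beyond their spread. Dtx3l and Trim25 also changed places, with 4.04 against 4.37 in replicate 1 and 5.85 against 4.29 in replicate 2. With 2 replicates each SD is itself uncertain.

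The peaks with the most reads were not those with the highest folds. The 25 peaks of replicate 1 rested on 11 to 143 IP reads (median 63) and the 22 of replicate 2 on 16 to 145 (median 60), close to the list medians of 57 in each. Trim25 and Zc3hav1 combined 86 to 145 IP reads at their strongest peak with folds of 3.09 to 4.37, while Parp14 reached its higher folds on 60 to 72. Of the 47 peaks of the 10 genes, 13 had a background under 5 control reads, 9 of them in Samd9l and 3 in Parp14. The plot of reads against background shows this for each peak.

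**Figure D5:**
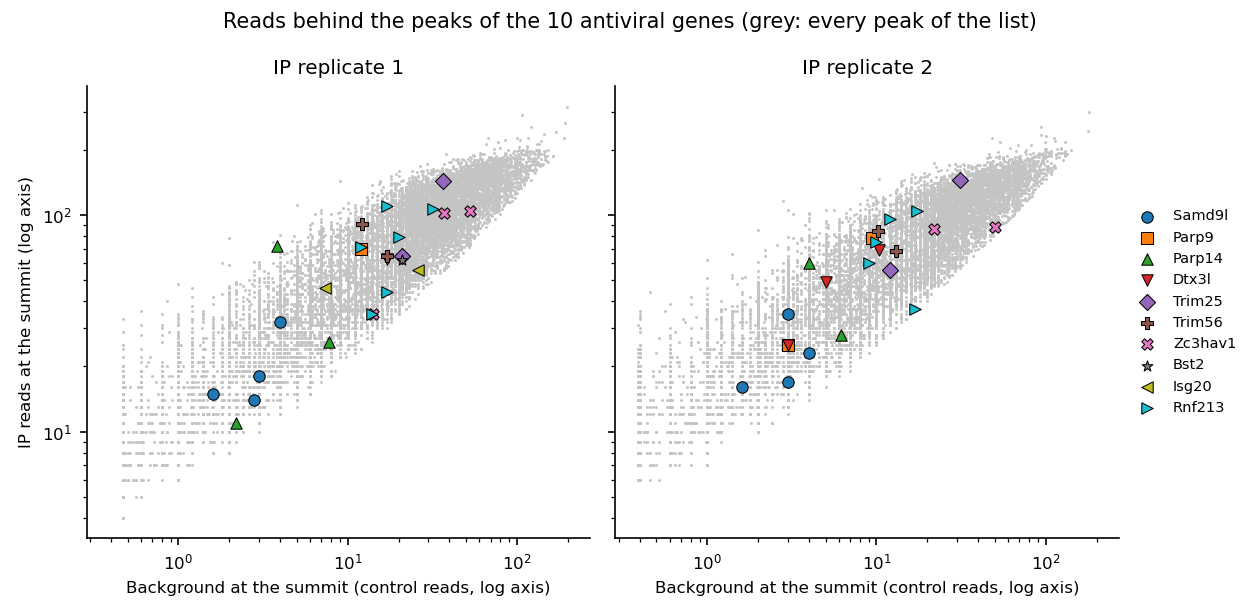
Each point is a peak, with the background at the summit in control reads on the x axis and the IP reads on the y axis, both log axes, for IP replicate 1 (left) and IP replicate 2 (right); coloured symbols are the peaks of the 10 antiviral genes and grey points every peak of the list. Samd9l lies at the low end with 14 to 35 IP reads, Trim25 at the high end with up to 145, and the 3′ UTR peak of Parp14 with 72 and 60 IP reads over 3.8 and 4 control reads.

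Related genes were counted by lists. Of 79 other interferon-stimulated genes, 36 had an exonic summit in both replicates (45.6%) and 45 in either. The strongest by mean −log10 q were Helz2, a helicase-family coactivator, with a fold of 5.34 in replicate 1 and 12.9 in replicate 2, Cmpk2, a mitochondrial nucleotide kinase, with 7.36 and 5.73, and Irgm1, an immunity-related GTPase, with 5.51 and 5.97. Their median transcript length was 2793 nt, shorter than the 5319.5 nt of the 10 genes. The lists were not tested against each other.

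Of 13 other Parp genes, 6 had a summit in both replicates (46.2%), namely Parp8, Parp1, Parp10, Tiparp, Parp16 and Parp11. Tiparp, a mono-ADP-ribosyltransferase induced by dioxin, had a fold of 10.5 in replicate 1 and 7.14 in replicate 2, which stayed below Parp14 in both. Of 46 other Trim genes, 27 had one in both (58.7%). Trim26 had 9.61 and 10, above Trim56 in both replicates, Trim39 had 4.84 and 5.42, and Trim13 had 6.28 and 4.92. Of 17 partners and relatives of the 10 genes, 13 had one in both (76.5%), led by Aen, a nuclease related to Isg20, Dcp1a, a decapping factor, and Exosc3, a subunit of the RNA exosome.

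The labelled cell type can be checked only in part, since a peak needs both a transcript and the mark. Of 10 markers of blood stem and progenitor cells 8 had a summit in both replicates, and Kit and Myb did not. The count was 4 of 8 for erythroid markers, 2 of 7 for hepatocyte markers and 2 of 8 for macrophage markers. Beside the 30.9% of all protein-coding genes, the hepatocyte (28.6%) and macrophage (25%) shares were near the background and say little about those cells, and the part of any of these other cells in the peaks of the 10 genes was not tested.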

How the data were processed

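meRIP-seq reads of Ythdf2 CTL c-Kit-enriched cells were aligned by the authors to GRCm38 (mm10) with HISAT2, and peaks were called in each replicate with MACS2 2.1.1.20160309 (nomodel). The deposited lists give each peak's fold enrichment, a ratio of IP signal to local background at the summit, its −log10 p and −log10 q, and the summit offset. The control library, the threshold and the genome size are not given in the sources used here. The lowest −log10 q was 1.31 and 1.30. The 2 input samples had no file used here.

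Summits were placed in exons of the GENCODE M21 basic set, without the mitochondrial genome, and on the transcript with the longest coding sequence of each gene. Windows were 200 nt for codons and 50 nt for motifs, and shared peaks overlapped by at least 1 bp. IP reads and background were computed from the deposited fold and p-value with the formulas of MACS2. A whole number of IP reads matched 100% of peaks within 0.001 of −log10 p, with 0.874 and 1.05 IP reads per control read. The computation was tested on simulated data. Library totals are not known from peak lists. No test was run, since there was 1 group. Python 3.11.15, numpy 2.4.6 and scipy 1.17.1 were used.

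Each of the 10 genes is described, and of each related list the 3 genes with a summit in both replicates and the highest mean −log10 q are named, or any gene in lists of at most 15. The genes and lists were chosen with earlier results of these data known. Alternatives were thresholds on −log10 q, fold and background, the overlap rule, the exon rule, the windows, and leaving out each replicate.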

Additional observations from a re-analysis of the deposited data

How the results depend on the processing

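The 8 genes called in both replicates were the same under a minimum −log10 q of 3 or 5, any overlap of a peak with an exon, all annotated transcripts, or summits in 1 gene only. At a minimum fold of 4 the count was 7, without Zc3hav1, Bst2 had no peak left, and the share of all protein-coding genes was 16.9%. With a background of at least 5 control reads, an alternative chosen after seeing the data, it was also 7, without Samd9l, and the share of all protein-coding genes was 25.3%. The 47 peaks of the 10 genes were 22 to 25 when a replicate was left out, by construction.

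Sharing between replicates, 78.7% over both lists, was 68.1% under a reciprocal overlap of 50%, 72.3% for summits within 100 bp and 72.7% at a minimum fold of 4. The share of summits at the stop codon, 8.70% over both lists, was 6.52% and 15.2% with windows of 100 and 400 nt and 5.56% for shared peaks. The coding share, 60.9%, was 67.4% with the 100 nt window and 66.7% for shared peaks. The share with GGAC, 60.9%, was 41.3% and 67.4% within 25 and 100 nt, and 100% for DRACH. The causes were not tested. The other 76 of 90 alternative values stayed within 1.5 times the reported count or within 1 SD of the replicates. Among them were all 26 for the fold of the strongest peaks, which says little about their stability. With 1 replicate left out this holds by construction, since each of 2 values lies within 1 SD of their mean. With the strongest peak picked by fold, the value was unchanged for every gene but Dtx3l. No paired analysis was possible because the result comes from no test.

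The peaks of Samd9l rested on 14 to 35 IP reads, and peak lists do not give the depth where no peak was called, as for Bst2 and Isg20 in replicate 2.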
